A study of Homo sapiens with 38 samples.

Results

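The genes described here are the nuclear-encoded subunits of the respiratory chain and the ATP synthase, measured by RNA-seq in RKO cells, a human colorectal cancer line. They were picked by symbol alone, from the names that begin with NDUFA, NDUFAB, NDUFB, NDUFC, NDUFS, NDUFV, SDHA to SDHD, UQCR, CYC1, COX4 to COX8 and ATP5 followed by a subunit letter, and no expression value entered the choice. The rule found 83 genes among the 25504 gene entries with a unique name, 38 for complex I, 4 for complex II, 10 for complex III, 14 for complex IV and 17 for the ATP synthase (complex V). It did not match COX4I1, a complex IV subunit, and it took in ATP5S and ATP5L2, which carry ATP synthase names without being established subunits. NDUFA4 was counted with complex I by its name, although the protein is now known as part of complex IV.

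The treatments were 0.1% DMSO, the vehicle, NCD38, an inhibitor of the histone demethylase LSD1, and NCD38 joined through a β-alanine linker to a pyrrole-imidazole polyamide, a small molecule that binds the minor groove of DNA. NCD38-β2P4 carries a polyamide of 4 pyrroles made for runs of A and T, and NCD38-β2PIPP one with an imidazole in place of the second pyrrole, made for a CG between A and T bases. RNA was taken on day 30 and on day 4, the sample labels give a dose of 2 µM for both days, and each of the 8 conditions had 1 library, so the 8 libraries form 4 pairs of days. All libraries came from 1 line, and a day cannot be told apart from the culture, library preparation and sequencing run of that day.

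Complex I takes electrons from NADH and complex II from succinate. Complex III passes them to cytochrome c, and complex IV to oxygen. Complexes I, III and IV pump protons across the inner mitochondrial membrane, and complex V uses the gradient to make ATP. The mitochondrial genome codes for a few core proteins, and the nuclear genes described here supply the rest, so that a working complex needs matched amounts from both genomes. Nuclear respiratory factor 1 (NRF1), the ETS factor GABP and YY1 are known regulators of many of these promoters.

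Expression was given as FPKM, a count of fragments scaled by transcript length and by the library's mapped fragments. The sum of FPKM was 677739 to 822230 per library, and a depth estimated from the FPKM of single fragments was 1.26e+07 to 2.32e+07 fragments. At that rough depth 70 of 77 subunit genes with a transcript length had over 100 fragments in every library. KRT8, KRT18 and CDX2, markers of intestinal epithelium, were expressed at 6.58 to 121 FPKM. EPCAM was 3.94 to 6.53 FPKM on day 30 and 0.0922 to 0.867 on day 4, KRT19 and CDH1 did not exceed 0.467, and VIL1 was listed at 0. Among markers of blood cells, fibroblasts and endothelium, PTPRC, CD3E, DCN and PECAM1 were listed at 0 in all libraries and COL1A1, COL3A1 and VWF at no more than 0.0152 FPKM. CD68, a lysosomal gene used as a macrophage marker, was 201 to 251 FPKM on day 30 and 633 to 763 on day 4. KDM1A, which encodes LSD1, was expressed in all libraries (38.01 to 72.1 FPKM). Its fitted day difference of -0.40 ± 0.20 (SE) on the log2(FPKM + 1) scale was not called (limma adjusted p = 0.13).

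The subunit genes were among the more highly expressed genes of these cells. The mean FPKM over the 8 libraries had a median of 172 across the 78 subunit genes with a mean of at least 1 FPKM, and of 9.21 across all 10865 genes that passed this filter. A mean of 100 FPKM or more was found for 52 of the 78 and for 899 of the 10865. Together the 83 genes held 2.53% to 2.77% of all FPKM on day 30 and 2.30% to 2.58% on day 4.

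The complexes differed in level. Median FPKM was 591 for complex IV, 239 for complex V, 151 for complex I, 101 for complex III and 38.4 for complex II, whose 4 genes were between 18.8 (SDHD) and 86.6 (SDHB). COX7C, a small subunit of complex IV, had the highest mean (983 FPKM), followed by ATP5E, the epsilon subunit of the ATP synthase (878 FPKM), ATP5J2, its f subunit (863 FPKM), and COX6A1 (857 FPKM). The highest of complex I were NDUFA13 (759 FPKM) and NDUFS5 (736 FPKM), both accessory subunits. In complex III, UQCRH, the hinge protein, was highest (757 FPKM). ATP5S was the lowest of those past the filter (2.30 FPKM). FPKM is scaled by transcript length, which allows only a rough comparison of levels between genes. The median transcript length was 799 nt for the subunit genes and 3084 nt for all tested genes. The part of length and GC content in these levels was not tested.

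The 5 genes below the filter were all complex IV isoforms known from other tissues. The heart and muscle isoform COX7A1 and the testis isoform COX7B2 were listed at 0 in all 8 libraries. COX6A2, also a heart and muscle isoform, was listed at 0.231 FPKM in the NCD38 library of day 30 and at 0 elsewhere. The testis isoform COX6B2 did not exceed 0.173 FPKM, and COX8C did not exceed 0.225 FPKM and was listed at 0 on day 4. Their widely expressed counterparts were high in every library. COX6A1 was 687 to 1022 FPKM, COX6B1 479.9 to 693, COX7A2 187 to 279, COX7B 61.3 to 932 and COX8A 470.2 to 1039.

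**Figure D1:**
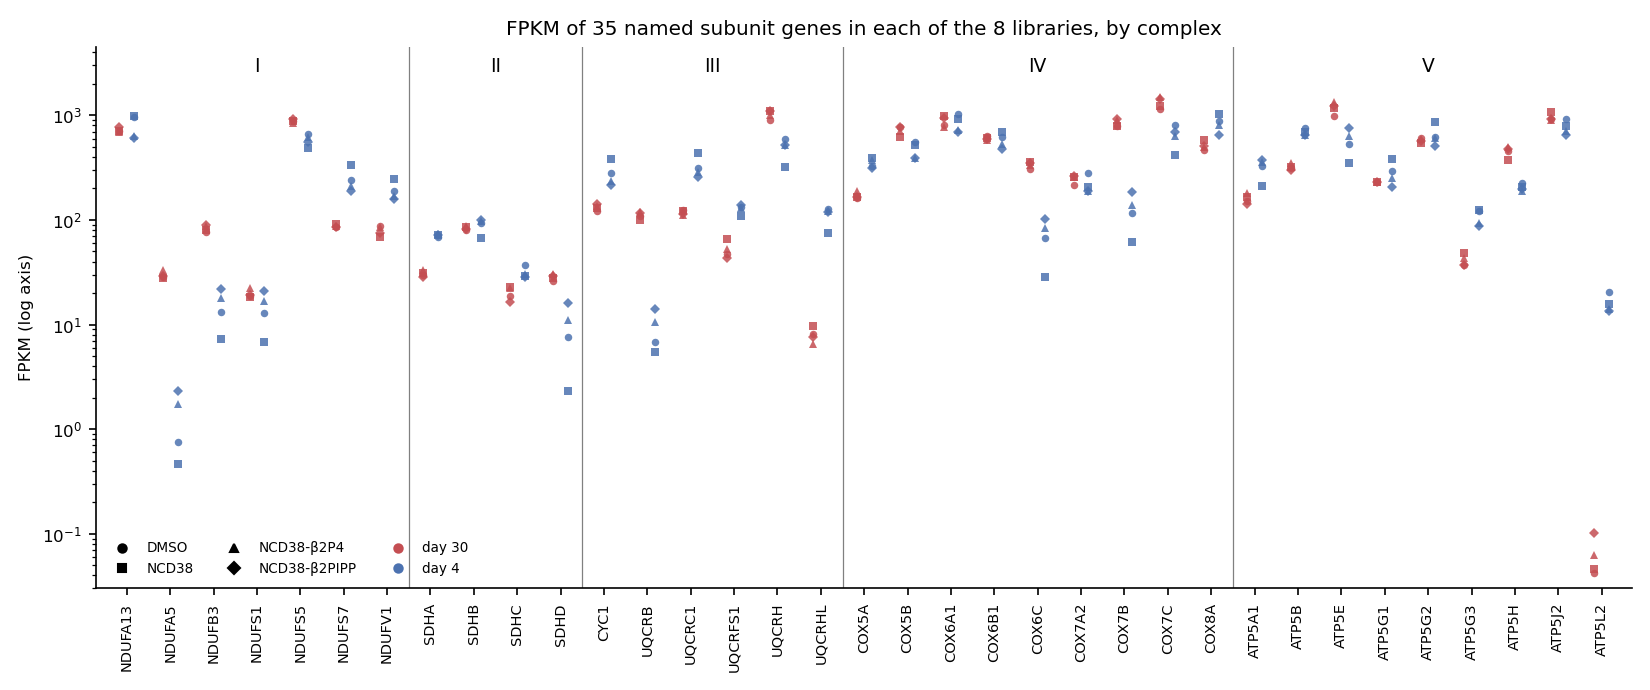
FPKM on a log axis of 35 named subunit genes that passed the filter, 1 point per library, grouped by complex I to V; colour gives the day and the shape the treatment. The 4 libraries of day 30 lie closer together than those of day 4, where SDHD ranged from 2.29 to 16.0 FPKM.

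Whether the subunit genes differed between the days was tested with limma on log2(FPKM + 1), with the 4 treatments as a block (4 libraries against 4, adjusted over 10865 genes). Of the 78 subunit genes, 27 were higher on day 30, 23 were lower and 28 were not called at an adjusted p of 0.05. The 23 include ATP5L2, which passed the filter only through its values of day 4. Over all genes tested 61.9% were called, 30.2% higher and 31.7% lower, and among the subunit genes 64.1%, so the share is near the background and the result is about which genes moved and in which direction. The median difference was 0.12 over the subunit genes and -0.02 over all genes. FPKM is relative to all mapped fragments, so fewer cells with a transcript and less of it per cell cannot be told apart. The FPKM of the 4 libraries of one day did not overlap with those of the other for 49 subunit genes, and for 62.6% of all genes. A called difference of more than 1 on the log2 scale was found for 16 genes that were higher and 13 that were lower.

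**Figure D2:**
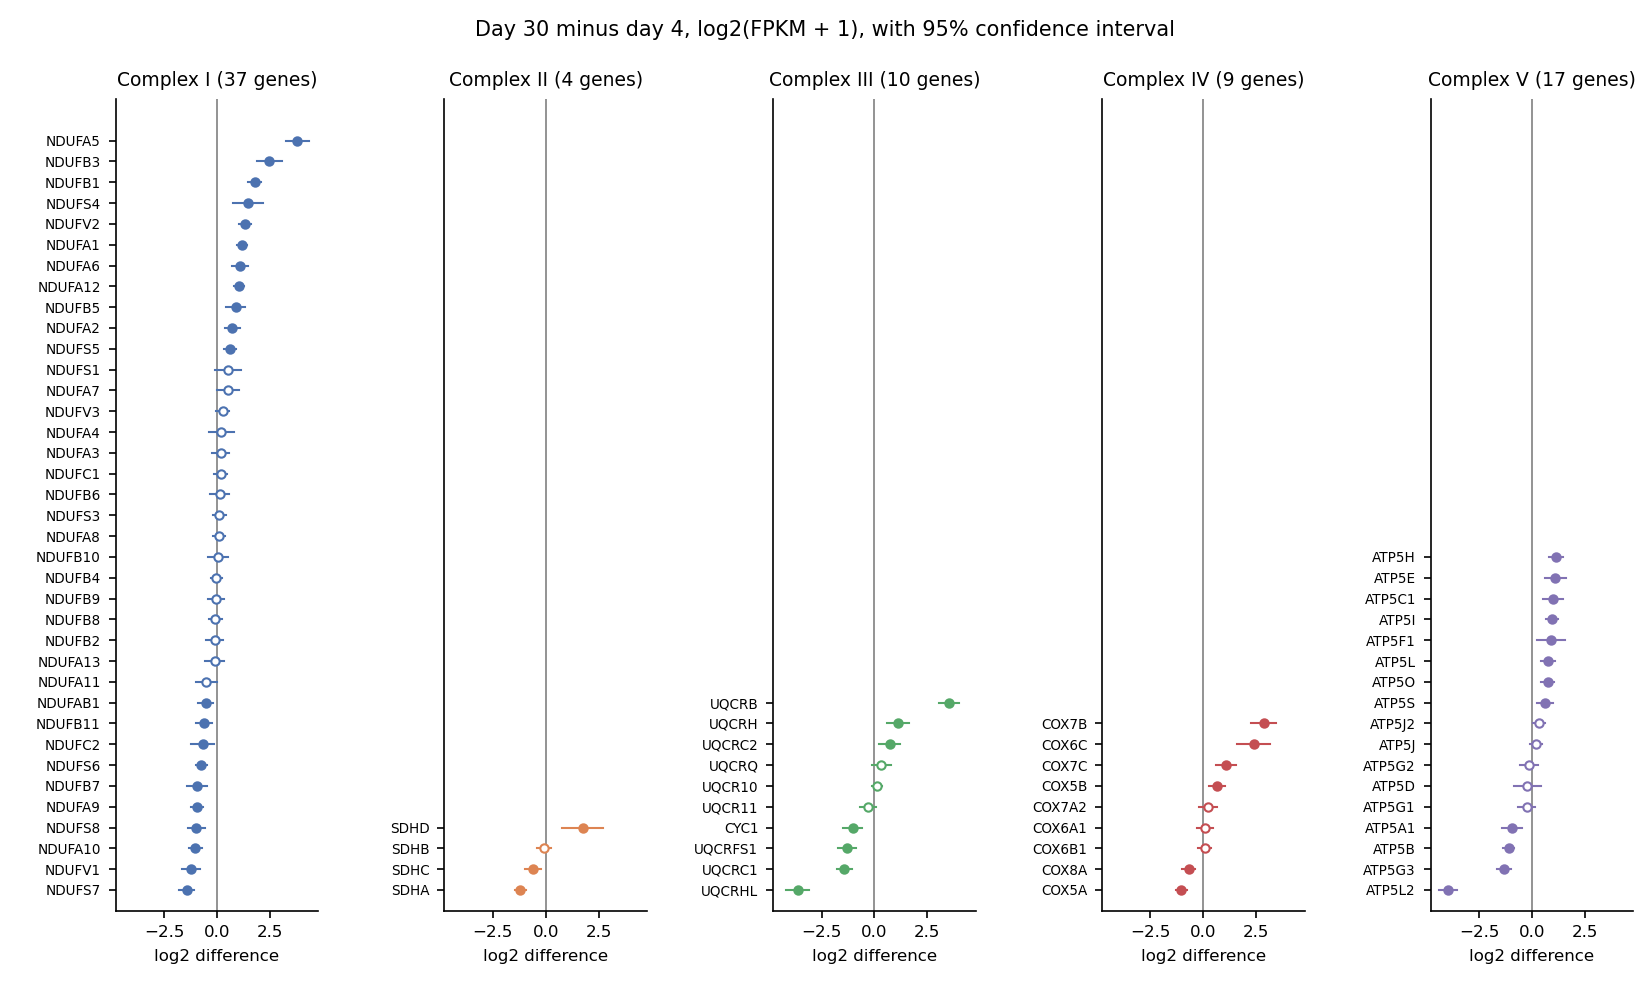
Fitted day difference (day 30 minus day 4, log2(FPKM + 1)) of 77 of the 78 subunit genes by complex. Points are limma estimates over 4 libraries of each day, lines their 95% confidence intervals, and filled points have an adjusted p under 0.05. Each complex holds genes on both sides of 0, from NDUFA5 at 3.80 to ATP5L2 at -3.98. ATP5L2 passed the filter only through its values of day 4.

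The background of 30.2% higher and 31.7% lower over all genes applies to each complex. In complex I, 11 of 38 genes were higher on day 30 and 11 were lower. The most different was NDUFA5, an accessory subunit of the matrix arm. Its FPKM on day 30 was 28.7 for the DMSO library, 27.6 for NCD38, 33.2 for NCD38-β2P4 and 29.4 for NCD38-β2PIPP. On day 4 it was 0.748, 0.467, 1.75 and 2.29 in the same order, which is kept for every set of 4 values below. All 4 libraries of day 30 were thus more than 10 times above those of day 4, and the fitted difference was 3.80 ± 0.22 (SE, limma adjusted p = 0.00040). NDUFB3, a subunit of the membrane arm, was 76.0, 80.1, 87.0 and 89.4 FPKM on day 30 and 13.2, 7.35, 17.8 and 21.8 on day 4, with a difference of 2.48 ± 0.23 (limma adjusted p = 0.00076).

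The core subunits of complex I, which carry the flavin and the iron-sulphur clusters, went mostly the other way. Of 7 such genes, 4 were lower on day 30 (among them NDUFS7, NDUFV1 and NDUFS8), 1 was higher (NDUFV2) and 2 were not called. The call of NDUFS8 was lost when the trend with GC content was removed (-0.97 and then -0.17, limma adjusted p = 0.24). NDUFS7, which holds the last cluster before ubiquinone, was 84.9, 90.7, 87.4 and 85.04 FPKM on day 30 and 238, 332, 209.6 and 191 on day 4 (difference -1.44 ± 0.15, limma adjusted p = 0.00093). The values of the 2 days did not overlap. NDUFV1, the subunit that binds NADH and flavin, was 68.4 to 86.9 FPKM on day 30 and 159 to 246 on day 4 (-1.25 ± 0.17, limma adjusted p = 0.0020). Its partner NDUFV2 was 266 to 287 FPKM on day 30 and 93.6 to 128 on day 4 (1.31 ± 0.11, limma adjusted p = 0.00062). These 2 proteins sit together in the NADH-binding module, and their transcripts differed in opposite directions. NDUFS1, the largest subunit, was 18.3 to 22.3 FPKM on day 30 and 6.83 to 20.7 on day 4, which overlap (0.52 ± 0.24, limma adjusted p = 0.11). Among the 31 other subunits of complex I, 10 were higher and 7 lower. The highly expressed NDUFS5 was higher (0.62 ± 0.12, limma adjusted p = 0.0068), and NDUFA13 was not called (-0.12 ± 0.18, limma adjusted p = 0.59).

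Complex II has no mitochondrially encoded subunit, and its 4 genes did not move together. SDHA, the flavoprotein that oxidises succinate, was 29.7, 31.2, 33.5 and 28.2 FPKM on day 30 and 68.6, 71.1, 73.5 and 72.4 on day 4. It was lower on day 30 in every treatment (-1.19 ± 0.10, limma adjusted p = 0.00063), and so was the membrane anchor SDHC (-0.61 ± 0.15, limma adjusted p = 0.015). SDHB, the iron-sulphur subunit, was 79.5 to 87.4 FPKM on day 30 and 67.5 to 100.5 on day 4 and was not called (-0.08 ± 0.14, limma adjusted p = 0.64). The other anchor, SDHD, was 25.8, 28.1, 30.4 and 29.2 FPKM on day 30 and 7.66, 2.29, 11.04 and 16.0 on day 4. It was higher on day 30 (1.75 ± 0.38, limma adjusted p = 0.011), and its 4 values of day 4 spread more than those of any other subunit gene, 5.17 times from the lowest to the highest in FPKM + 1.

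In complex III, 3 of 10 genes were higher on day 30 and 4 were lower. UQCRB, a small subunit at the ubiquinone site, was 109, 100.3, 118 and 117 FPKM on day 30 and 6.84, 5.45, 10.6 and 14.1 on day 4 (3.53 ± 0.20, limma adjusted p = 0.00038). The subunits with redox centres were lower on day 30. CYC1, cytochrome c1, was 120.5 to 143 FPKM on day 30 and 214 to 385 on day 4 (-1.03 ± 0.18, limma adjusted p = 0.0052). UQCRFS1, the Rieske iron-sulphur protein, was 43.5 to 65.3 and 109 to 138 FPKM (-1.29 ± 0.17, limma adjusted p = 0.0019). The core protein UQCRC1 was 111 to 125 and 255 to 437 FPKM (-1.42 ± 0.14, limma adjusted p = 0.00089). None of these 3 overlapped between the days. The other core protein, UQCRC2, was higher on day 30 (0.73 ± 0.20, limma adjusted p = 0.024), with values that overlapped between the days.

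In complex IV, 4 of 9 genes were higher on day 30 and 2 were lower. COX7B was 783, 794, 892 and 932 FPKM on day 30 and 118, 61.3, 138 and 185 on day 4 (2.85 ± 0.23, limma adjusted p = 0.00058). COX6C was 310.2, 355, 336 and 348 FPKM on day 30 and 67.0, 28.5, 83.2 and 103 on day 4 (2.38 ± 0.32, limma adjusted p = 0.0019). Both are small subunits around the catalytic core, and both were lowest in the NCD38 library of day 4. COX7C was higher on day 30 as well (1.08 ± 0.19, limma adjusted p = 0.0047). COX5A and COX5B, which are different subunits and not isoforms, differed in opposite directions. COX5A was 161 to 189 FPKM on day 30 and 312 to 392 on day 4 (-1.04 ± 0.10, limma adjusted p = 0.00086), whereas COX5B was 622 to 779.7 and 388 to 553 FPKM (0.64 ± 0.15, limma adjusted p = 0.014). COX8A was lower on day 30 (-0.70 ± 0.13, limma adjusted p = 0.0061). COX6A1, COX6B1 and COX7A2 were not called, with differences of 0.07, 0.06 and 0.22.

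In complex V, 8 of 17 genes were higher on day 30 and 4 were lower. The 4 include ATP5L2, which passed the filter only through its values of day 4. The alpha and beta subunits of the catalytic head were lower. ATP5B, the beta subunit that holds the catalytic sites, was 313, 322, 348 and 298 FPKM on day 30 and 762, 685, 649.9 and 645 on day 4 (-1.10 ± 0.11, limma adjusted p = 0.00085). ATP5A1, the alpha subunit, was 141 to 180.1 and 213 to 370.2 FPKM (-0.96 ± 0.18, limma adjusted p = 0.0068). Neither overlapped between the days. ATP5E, the epsilon subunit, and ATP5H, the subunit d of the stalk, were higher on day 30 (1.11 ± 0.19 and 1.13 ± 0.12, limma adjusted p = 0.0047 and 0.0011). The gamma subunit ATP5C1 was higher as well (0.98 ± 0.19, limma adjusted p = 0.0074). The delta subunit ATP5D was not called (-0.22 ± 0.25, limma adjusted p = 0.48). ATP5G1, ATP5G2 and ATP5G3 encode the same mature subunit c of the proton-driven ring with different import sequences. Of these, ATP5G3 was 36.8 to 48.2 FPKM on day 30 and 88.0 to 125 on day 4 (-1.34 ± 0.13, limma adjusted p = 0.00085). ATP5G1 (229 to 233 and 205 to 383 FPKM) and ATP5G2 (541 to 606 and 508 to 861 FPKM) were not called, with differences of -0.26 ± 0.16 and -0.14 ± 0.16.

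The day differences followed the base composition of the transcripts. Across the 77 subunit genes with a matched GENCODE transcript the Spearman correlation with GC content was -0.56, and across all 9848 such genes it was -0.70, a description over genes that share the same 8 libraries. Ordered by GC content, the 26 subunit genes at the low end (34.6% to 44.9%) had a median day difference of 0.95, the middle 25 one of 0.17 and the 26 at the high end (52.5% to 69.5%) one of -0.24. NDUFA5, the gene with the largest increase, also had the lowest GC content (34.6%). The part of GC content in the day differences was not tested. When the trend of each library with GC content was removed, 30 of 77 genes were higher on day 30 and 21 lower (background 29.8% and 29.2% of 9848 genes, 59.0% in all). Of the 50 calls, 35 were the same after this step, 18 higher and 17 lower, and 1, NDUFB5 of complex I, was called in the opposite direction (0.89 and then -0.31). NDUFA5 (2.22), UQCRB (2.33), COX7B (1.89), NDUFB3 (1.37) and COX6C (1.27) remained higher by this fit. NDUFS7 (-0.76), SDHA (-0.74), UQCRC1 (-0.71), UQCRFS1 (-1.96), COX5A (-1.30), ATP5B (-0.78) and ATP5G3 (-2.77) remained lower. The call was lost for the other 14. These were NDUFS8 (-0.17), NDUFB7, NDUFS6, NDUFB11 and NDUFA12 of complex I, CYC1 (-0.33) and UQCRC2 of complex III, COX8A (0.01) and COX7C (-0.03) of complex IV, and ATP5E (-0.33), ATP5L (-0.45), ATP5S, ATP5F1 and ATP5C1 of complex V.

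**Figure D3:**
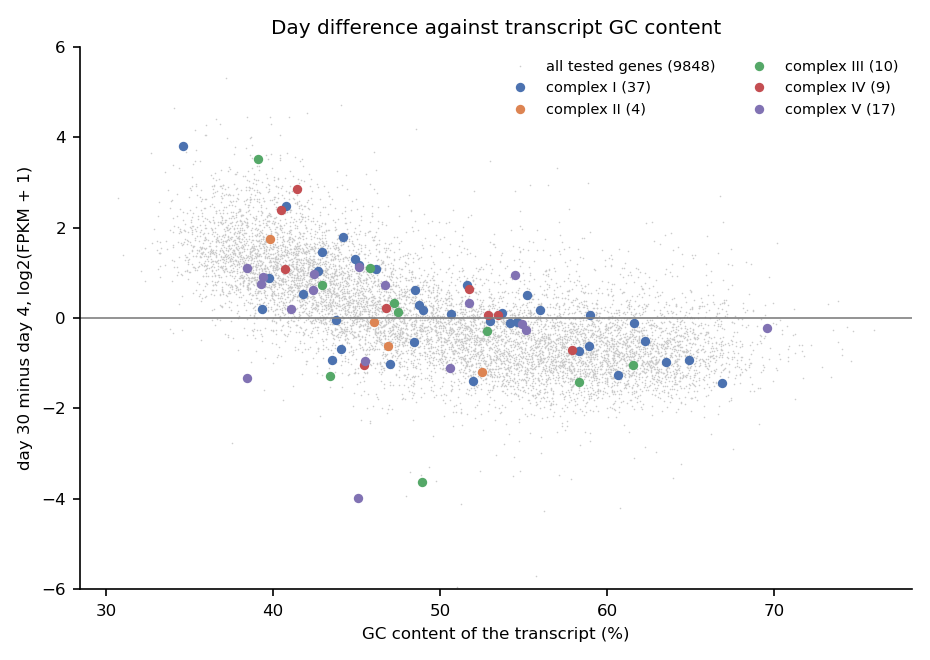
Day difference (day 30 minus day 4, log2(FPKM + 1)) against the GC content of the transcript in percent, with the subunit genes coloured by complex over all 9848 tested genes with a transcript in grey. Both fall from left to right; UQCRHL and ATP5L2 lie below the other subunit genes at their GC content, at -3.62 and -3.98.

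The 2 genes that were lowest on day 30 relative to day 4 are near-copies of other subunit genes. UQCRHL is an intronless copy of UQCRH on chromosome 1 (GRCh37 16133869 to 16134144, minus strand), while UQCRH lies at 46769370 to 46782448 of that chromosome on the plus strand. Their coding sequences, from GENCODE transcripts on GRCh37, are both 276 nt long and differ at 4 positions (98.6% identity), and the longest stretch without a difference is 157 nt. All 4 differences fall in coding positions 141 to 240, shown 5′ to 3′ with the differing bases in capitals.
UQCRH: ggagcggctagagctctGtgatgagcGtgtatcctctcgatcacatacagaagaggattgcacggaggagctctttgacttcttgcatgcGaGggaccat
UQCRHL: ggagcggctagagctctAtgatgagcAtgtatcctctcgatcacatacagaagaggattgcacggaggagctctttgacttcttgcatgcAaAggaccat

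UQCRHL was 8.07, 9.58, 6.503 and 7.67 FPKM on day 30 and 127, 75.8, 121 and 119 on day 4 (-3.62 ± 0.22, limma adjusted p = 0.00040). UQCRH was 904, 1095, 1005 and 1094 FPKM on day 30 and 600.3, 318, 519 and 517 on day 4 (1.10 ± 0.21, limma adjusted p = 0.0061). The copy and its parent thus differed in opposite directions, with no overlap between the days for either. A fragment that covers none of the 4 positions is identical in both genes, so the division of fragments between them is uncertain.

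ATP5L2, on chromosome 22 (GRCh37 43035809 to 43036607, minus strand), resembles ATP5L, the g subunit, on chromosome 11 (118272321 to 118280562, plus strand). ATP5L was named for this comparison after its values were seen. The coding sequences differ at 19 of 303 compared positions (93.7% identity), with a longest identical stretch of 68 nt. Coding positions 1 to 110 hold 9 of these differences, in capitals.
ATP5L: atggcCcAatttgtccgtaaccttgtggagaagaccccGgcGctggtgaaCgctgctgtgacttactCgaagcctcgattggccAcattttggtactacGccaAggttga
ATP5L2: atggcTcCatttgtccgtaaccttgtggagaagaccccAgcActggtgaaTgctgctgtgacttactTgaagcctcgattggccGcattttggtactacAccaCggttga

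ATP5L2 was 0.0424, 0.0461, 0.0620 and 0.101 FPKM on day 30 and 20.4, 15.7, 14.2 and 13.6 on day 4 (-3.98 ± 0.17, limma adjusted p = 0.00028). It passed the filter only through its values of day 4, and its lowest depth estimate was 0.62 fragments. The filter thus favoured a lower value on day 30, and this p-value is no separate support. ATP5L was 220.2 to 228 FPKM on day 30 and 111 to 164 on day 4 (0.76 ± 0.13, limma adjusted p = 0.0045). Both copies had their lower values on day 30 and both parents their higher ones. With the GC trend removed UQCRH stayed higher (0.84), while the call of ATP5L was lost and its sign turned (-0.45, limma adjusted p = 0.17), and with median scaling its limma adjusted p was 0.055. Without UQCRHL and ATP5L2, 27 of 76 subunit genes were higher on day 30 and 21 were lower. In all, 18 of 82 subunit genes searched had another locus in GRCh37 with at least 90% identity over at least 80% of the transcript, among them SDHD (4 loci), SDHC (3), ATP5G1 (4), UQCRH (2), COX6A1 (2), NDUFB3 (1) and NDUFV2 (1), and the values of these genes carry the same uncertainty.

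**Figure D4:**
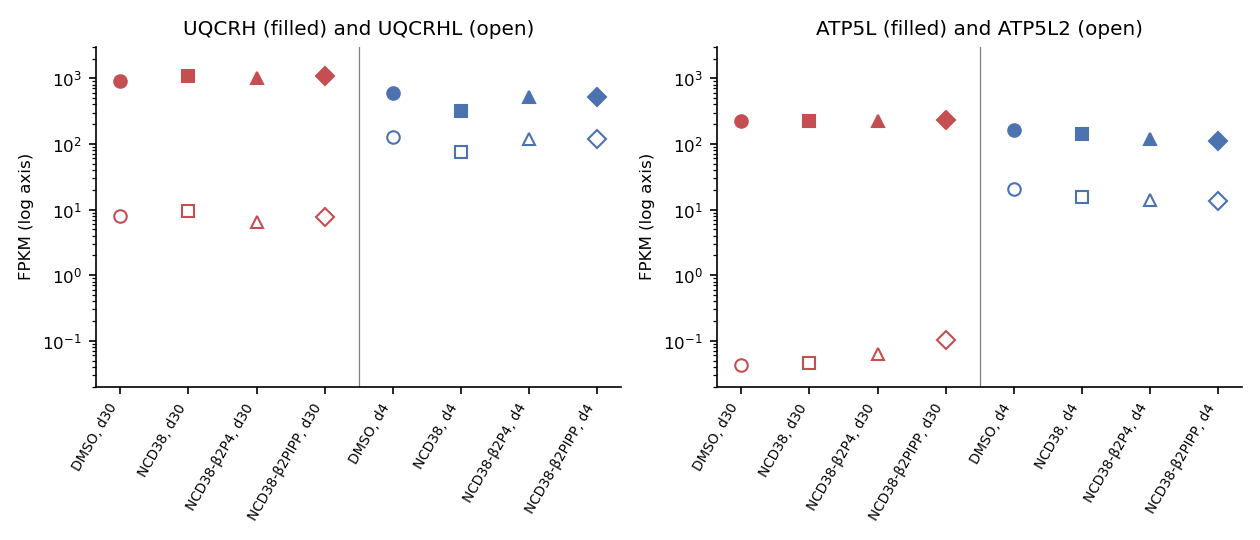
FPKM on a log axis in each of the 8 libraries for UQCRH with UQCRHL and for ATP5L with ATP5L2; filled points are the parent, open points the copy, and red and blue are day 30 and day 4. UQCRHL lies at 6.503 to 9.58 FPKM on day 30 and at 75.8 to 127 on day 4, and UQCRH at 318 or more on both.

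Other genes of mitochondrial respiration were compared by the same fit, beside the same background of 30.2% higher and 31.7% lower. With the GC trend removed the background was 29.8% and 29.2%. Of 9 tested electron transport genes that the naming rule did not reach, 4 were higher on day 30 and 1 lower (median 0.33). Cytochrome c (CYCS, 1.53), the ATP synthase inhibitor ATPIF1 (1.10) and the small ATP synthase proteins USMG5 (2.26) and C14orf2 (1.15) were higher, and ATP5SL (-0.997) was lower. COX4I1 was 725 ± 35.3 FPKM on day 30 and 701 ± 132 on day 4 (SD, n = 4) and was not called. Of 32 tested assembly factors 11 were higher and 9 lower (median 0.50), and with the GC trend removed 10 were higher and 4 lower (median 0.095). Of 17 genes of the TCA cycle, which feeds electrons to complexes I and II, 5 were higher and 8 lower (median -0.34). The lower ones included MDH2 (-2.20) and citrate synthase (CS, -1.43). Of 75 mitochondrial ribosomal protein genes 32 were higher and 18 lower (median 0.28), and of 80 cytosolic ribosomal protein genes 46 were higher and 4 lower (median 0.73). Of 12 regulators 3 were higher (GABPA at 1.16, TFAM at 1.56 and TFB1M at 0.63) and 3 were lower (NRF1 at -1.04, POLRMT at -1.07 and PPRC1 at -0.60), while the coactivator PPARGC1A did not exceed the filter. The comparisons of all 6 lists share the same libraries with that of the subunit genes, and the GC trend moved some of their calls. With it removed, 2 regulators were higher and 5 lower (median -0.32). GABPA was then called in the opposite direction (-0.42), TFAM (-0.03), TFB1M (-0.33) and PPRC1 (0.11) were not called, and NRF1 (-0.90) and POLRMT (-0.40) stayed lower. ATP5SL (-0.28) also lost its call, and COX4I1 was called higher (0.53, limma adjusted p = 0.029). Of the 9 electron transport genes 6 were then higher and 1 lower. The medians of the other lists were then 0.57 for the electron transport genes, -0.38 for the TCA cycle, 0.45 for the mitochondrial and 0.77 for the cytosolic ribosomal proteins.

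The promoters of the subunit genes were searched for the motifs of their known regulators, as a description with no test. RefSeq promoters (GRCh38.p14, 250 bases before to 50 after the start) were found for 65 of the 83 genes, 77 promoters in all, and motifs were counted on both strands. The NRF1 motif was in 20.8% of these and in 5.78% of all 35116 promoters, the ETS motif CCGGAAG in 26.0% and 10.3%, and the YY1 motif ATGGCGGC in 16.9% and 3.0%. The E-box CACGTG (9.09% and 7.26%) and the TATA box TATAAA (9.09% and 11.5%) were at similar shares. The sequences that the polyamides were made for were also at similar shares. A run of 6 bases each A or T was in 62.3% and 61.2%, and a CG with 2 bases each A or T on both sides in 19.5% and 15.9%. TATAAA is itself a run of 6 A or T bases, and such a run can also share bases with the flanked CG, so these counts overlap. For 64 of 76 promoters checked, the bases after the start were found in the transcript used for GC content. The median day difference was 0.10 for 15 tested genes with an NRF1 motif and 0.18 for 46 without one, and 0.19 for 19 with an ETS motif and 0.13 for 42 without one.

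The promoters of 3 genes are shown as the 250 bases before the start, chosen after the motifs were counted, to show a promoter with both regulator motifs, one of a complex II gene and one with both polyamide sequences. Capitals mark NRF1 and ETS motifs in UQCR11 (chr19:1605463-1605712, minus strand), the ETS motif in SDHB (chr1:17054033-17054282, minus strand), and runs of 6 or more A or T bases and the CG between such bases in NDUFB3 (chr2:201071751-201072000, plus strand), all in GRCh38.p14 and read 5′ to 3′ towards the gene.
UQCR11: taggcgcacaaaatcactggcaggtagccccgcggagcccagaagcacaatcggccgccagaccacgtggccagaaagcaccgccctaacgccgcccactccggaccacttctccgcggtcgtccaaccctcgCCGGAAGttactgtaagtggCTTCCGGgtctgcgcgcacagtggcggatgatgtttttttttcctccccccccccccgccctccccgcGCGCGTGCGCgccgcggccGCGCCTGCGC
SDHB: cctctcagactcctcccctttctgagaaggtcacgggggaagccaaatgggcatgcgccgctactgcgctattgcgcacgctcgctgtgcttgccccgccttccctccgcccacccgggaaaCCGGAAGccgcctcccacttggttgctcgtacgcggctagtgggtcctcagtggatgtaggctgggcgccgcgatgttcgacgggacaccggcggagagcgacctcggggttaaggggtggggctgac
NDUFB3: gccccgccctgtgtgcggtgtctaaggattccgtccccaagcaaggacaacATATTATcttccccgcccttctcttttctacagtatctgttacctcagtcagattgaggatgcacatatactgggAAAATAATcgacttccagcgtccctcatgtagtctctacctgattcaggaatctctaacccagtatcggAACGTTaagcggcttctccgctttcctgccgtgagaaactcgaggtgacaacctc

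Each inhibitor was then set against DMSO, with its libraries of day 30 and day 4 as 2 values and a term for the day (2 libraries against 2). No subunit gene was called with NCD38, NCD38-β2P4 or NCD38-β2PIPP (0 of 78 each), beside 0.0368%, 0.0184% and 0.0184% of all 10865 genes. At an unadjusted limma p under 0.05 there were 0, 1 and 0 subunit genes, the 1 being NDUFA12 with NCD38-β2P4 (0.40 ± 0.15), named after its value was seen. Over all genes the shares at that threshold were 1.33%, 0.295% and 0.571%. The median half-width of the 95% confidence interval over the subunit genes was 0.54 on the log2 scale, and larger fitted differences were not called either. The largest differences with NCD38 were those of SDHD (-0.64, 95% interval -1.99 to 0.72) and CYC1 (0.29, -0.36 to 0.94). With both conjugates NDUFS4, an accessory subunit of complex I, was the most positive and NDUFA2 the most negative. NDUFS4 differed by 0.64 (-0.38 to 1.66) with NCD38-β2P4 and by 0.75 (-0.27 to 1.76) with NCD38-β2PIPP, and NDUFA2 by -0.34 (-0.84 to 0.15) and -0.39 (-0.88 to 0.11). These intervals all include 0, and the comparisons share the DMSO libraries. With the 3 inhibitors taken as 1 term, no subunit gene was called by limma either, nor had any an unadjusted p under 0.05.

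The 3 pairs of compounds were compared in the same way, at the same labelled dose and days, with p-values adjusted over all genes within each pair. No subunit gene was called by limma for NCD38-β2P4 against NCD38, NCD38-β2PIPP against NCD38 or NCD38-β2P4 against NCD38-β2PIPP (background 0.00920%, 0.0184% and 0.0276%). At an unadjusted limma p under 0.05 there were 3, 4 and 0 of 78 (3.85%, 5.13% and 0%), beside 3.24%, 6.37% and 0.313% of all genes. These shares are near the background, and the genes are named here after their values were seen. They were NDUFB5, UQCRC2 and ATP5S for the first pair and NDUFB5, UQCRC2, COX7B and UQCRB for the second. All of them were higher with the conjugate than with NCD38, by 0.56 to 0.90. The largest differences of the conjugates from NCD38 were those of SDHD, 0.99 (-0.37 to 2.34) for NCD38-β2P4 and 1.21 (-0.14 to 2.57) for NCD38-β2PIPP. In the other direction they were -0.37 (-0.93 to 0.20) for NDUFB11 and -0.47 (-1.01 to 0.08) for NDUFS8. Between the conjugates, which differ by an imidazole in place of a pyrrole, the extremes were NDUFA12 (0.28, -0.09 to 0.64) and COX7B (-0.24, -1.06 to 0.57), so differences inside these intervals cannot be told from none.

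Single libraries showed how unlike the days were. With 1 library in each condition there is no test, and genes at least 1.5-fold above or below DMSO of the same day in FPKM + 1 were counted. On day 30, the counts were 0 higher and 1 lower of 78 with NCD38 (background 4.00% and 2.80%), 0 and 0 with NCD38-β2P4 (1.43% and 0.874%), and 0 and 0 with NCD38-β2PIPP (1.72% and 0.911%). The 1 gene was NDUFA7, at 147 FPKM with NCD38 and 226 with DMSO. On day 4, 1 was higher and 15 were lower with NCD38 (background 2.10% and 22.5%), 2 and 3 with NCD38-β2P4 (7.87% and 1.68%), and 9 and 4 with NCD38-β2PIPP (27.1% and 1.91%). In FPKM + 1, the highest of the 4 libraries of a day exceeded the lowest by a median factor of 1.20 on day 30 and 1.49 on day 4 for the subunit genes, and by 1.28 and 1.61 for all genes. A factor of 1.5 or more was seen for 2 of 78 subunit genes on day 30 and 38 on day 4, and for 16.0% and 57.7% of all genes.

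On day 4 some genes stood on opposite sides of DMSO with NCD38 and with NCD38-β2PIPP, against a shared DMSO library. SDHD was at 2.29 FPKM with NCD38, 7.66 with DMSO and 16.0 with NCD38-β2PIPP, which are log2 ratios of FPKM + 1 of -1.40 and 0.97. COX6C had ratios of -1.20 and 0.61, COX7B of -0.93 and 0.65, and NDUFB3 of -0.76 and 0.69. Others were below DMSO with both, among them COX7C (-0.95 and -0.20), UQCRH (-0.91 and -0.21), UQCRHL (-0.74 and -0.097) and NDUFA2 (-0.39 and -0.71). NDUFS4 had the largest positive ratio with NCD38-β2PIPP (1.28), at 27.7 FPKM beside 10.8 with DMSO. ATP5D, the delta subunit of the ATP synthase, had the largest positive ratio with NCD38 (0.80), at 502 FPKM beside 287. On that day 15 of 78 subunit genes had their lowest FPKM with NCD38, followed by DMSO, NCD38-β2P4 and NCD38-β2PIPP, as did 44.4% of all genes tested, and 22 had the exact reverse order, as did 13.1%. The order counted is that of SDHD, which was taken as the reference. The transcripts of the 15 had a median GC content of 40.8% and those of the 22 one of 56.9%. The first set holds SDHD, NDUFA5, NDUFB3, UQCRB, COX6C and COX7B, and the second NDUFS7, NDUFV1, CYC1, UQCRC1 and COX8A.

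These ratios also followed GC content. Across 77 subunit genes the Spearman correlation on day 4 was 0.71 for NCD38, -0.39 for NCD38-β2P4 and -0.62 for NCD38-β2PIPP, and across all genes 0.61, -0.55 and -0.71. On day 30 it was -0.30, -0.65 and -0.32 across the subunit genes, where the ratios themselves were small. Across all genes it was -0.18, -0.53 and -0.03 on that day. The NCD38 library of day 4 had a median ratio of -0.48 over the 26 genes at the low end of GC content and of 0.23 over the 26 at the high end, and with NCD38-β2PIPP it was 0.21 and -0.37. With the GC trend removed, NCD38 on day 4 had 6 genes higher and 3 lower, and NCD38-β2PIPP had 1 higher and 20 lower, of 77. The share over all genes was not counted after this step, so these counts have no background. The part of GC content in these ratios was not tested.

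**Figure D5:**
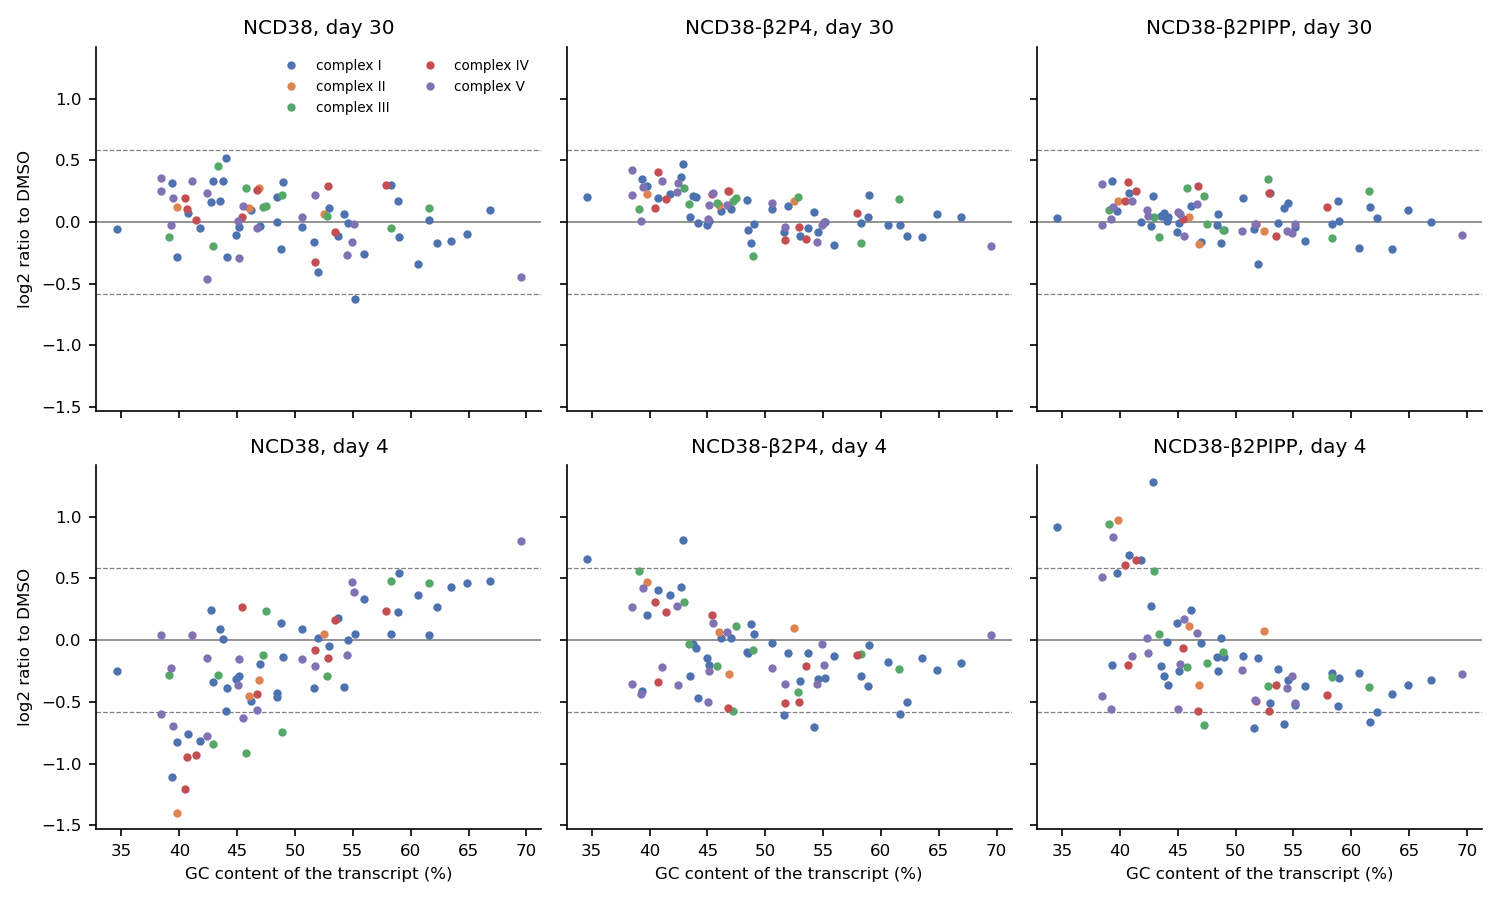
Log2 ratio of FPKM + 1 to the DMSO library of the same day against transcript GC content in percent, for the 3 inhibitors (columns) on day 30 (top) and day 4 (bottom), 1 library each; points are 77 subunit genes coloured by complex, and dashed lines mark 1.5-fold. On day 30 all points but 1, NDUFA7 with NCD38, lie between the dashed lines, and on day 4 the slope is upward with NCD38 and downward with both conjugates.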

How the data were processed

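The deposited table holds FPKM values of 8 libraries, which per the paper's methods the authors made from stranded mRNA libraries with TopHat and Cufflinks. The submitters' processing notes list HISAT2 2.2.1.0, Cufflinks and hg19 without a role, and the annotation used is not given in the sources used here. The Methods give a dose of 2 mM for day 4 where the labels give 2 µM. Names occurring more than once (90 of 25594 entries) were left out. Genes with a mean FPKM of at least 1 (10865) were tested on log2(FPKM + 1) with limma 3.58.1 in R 4.3.3 (lmFit, eBayes with trend), with treatment and day as terms and Benjamini-Hochberg adjustment. The added 1 makes fold changes of low genes smaller. A treatment was compared over its 2 days, which assumes 1 difference common to both, and p-values measure the spread between these libraries only. No other column of values was present. GC content and length come from GENCODE transcripts on GRCh37, matched for 9848 tested genes and 82 subunit genes, and copies were searched with minimap2 2.31-r1302. Fits were tested on simulated data with independent noise at the spread of day 30. These simulated data held neither the wider spread of day 4 nor a GC trend. The GC trend was removed as the median of 20 bins in each library.

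Genes to be named were the 2 with the highest mean FPKM and the 2 with the largest day difference in each direction per complex, catalytic core subunits, paralogue groups, those called or most different per inhibitor, and those below the filter. NDUFS8, NDUFV2, NDUFA7, ATP5D, ATP5L and those whose call was lost without the GC trend were named after their values were seen. The members, the 6 gene lists and the motifs were chosen with earlier results of these data known. Alternatives changed the pseudocount, filter, scaling, GC and length trends, blocks and libraries, and 1 that keeps transcripts of at least 500 nt was added after the data were seen. A few genes of the lists are not reported here.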

Additional observations from a re-analysis of the deposited data

Results flagged for a closer look

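The median log2 ratio of the 78 subunit genes to DMSO of the same day had opposite signs on the 2 days with each inhibitor. For NCD38 it was 0.045 on day 30 and -0.15 on day 4, for NCD38-β2P4 0.11 and -0.13, and for NCD38-β2PIPP 0.033 and -0.24. Each value rests on 1 library and its DMSO library, the 3 inhibitors share that DMSO library, and the difference between the days was not tested. Over all genes tested the medians were 0.06 and -0.21, 0.06 and 0.09, and -0.01 and 0.17. With the GC trend removed the subunit medians were -0.02 and 0.14, 0.02 and -0.21, and 0.04 and -0.35. No library lay apart from the other 3 of its day in the summed FPKM of a complex by Dixon's criterion.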

How the results depend on the processing

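The counts of subunit genes called between the days stayed within 1.5 times of 27 higher and 23 lower in each alternative, at 23 to 30 and 19 to 23 when 1 library was left out, and no inhibitor or compound comparison called a subunit gene in any. Of 880 values recomputed, 802 kept their direction and side of the threshold or their size. Because treatment is a block, leaving out 1 library also takes its partner of the opposite day out of the day estimate. Both libraries of a pair thus gave the same day difference, and both are counted among the 880. Among the 36 genes followed under these settings, 9 values kept their sign and lost the call (COX5B, CYC1, NDUFS5 and SDHC), and 7 gained one. The 21 values that changed sign were counted apart. With the GC trend removed these include COX7C, COX8A and ATP5E, which also lost their calls. With the GC trend removed the day difference changed sign for NDUFA13 (0.59), COX7C (-0.030), COX8A (0.011), ATP5E (-0.33), NDUFS1 (-0.44), ATP5G1 (0.38) and ATP5G2 (0.49). Quantile normalisation did so for SDHB (0.24) and ATP5G1 (0.051), median scaling for COX6A1 (-0.042) and COX6B1 (-0.051), and removal of the length trend for COX6A1 (-0.098) and COX6B1 (-0.11). Leaving out 1 library gave -0.27 to 0.0055 for NDUFA13, -0.24 to 0.034 for ATP5G2, -0.056 to 0.21 for COX6A1 and -0.015 to 0.15 for COX6B1. The causes were not tested.

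The counts from single libraries depended most on the settings, given here as higher and lower. The shares over all genes were not counted under these settings, so the counts have no background. Set against DMSO of the opposite day they were 19 and 24 for NCD38, 24 and 24 for NCD38-β2P4 and 22 and 24 for NCD38-β2PIPP on day 30, and 23 and 28, 22 and 23, and 19 and 23 on day 4. At 2-fold on day 4 they were 0 and 3, 0 and 0, and 1 and 0, and NCD38 on day 30 had 0 lower. With median scaling on day 4 they were 9 and 9, 1 and 10, and 5 and 18, with the GC trend removed 6 and 3, 0 and 13, and 1 and 20, and with the length trend removed 2 higher for NCD38, 1 and 0 for NCD38-β2P4 and 5 and 2 for NCD38-β2PIPP. For NCD38 on day 30, 0 were lower with the length trend removed and 2 with a pseudocount of 0.1 or 0.01, and NCD38-β2PIPP had 1 higher on day 30 with 0.01. The day comparison pairs the libraries by treatment, and without the treatment block 30 subunit genes were higher and 24 lower. The labels give no replicate numbers, with 1 library in each condition. Depth was only estimated, and each inhibitor comparison rests on 2 libraries per treatment.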
